A study of Mus musculus with 3 samples.

Results

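The cells described here were barcodes of dissociated mouse cochlear tissue that held RNA of type I and type III collagen and of decorin. A barcode was counted in if it had UMIs in 200 to 6000 genes, at most 15% of its UMIs from mitochondrial genes, a UMI in at least 3 of the 4 genes Col1a1, Col1a2, Dcn and Col3a1, Coch below 0.5% of its UMIs, and a UMI in at most 1 of the 3 bone genes Bglap, Bglap2 and Ibsp. A UMI (unique molecular identifier) stands for 1 captured RNA molecule. Of 14378 barcodes within the limits on genes and mitochondrial UMIs, 1403 met the whole rule, and the other 12975 served for comparison. The study used untreated mice, with the strain label C57/B6, bred from Jackson Laboratory stock. It took the bony wall off the cochleae and lifted out the coiled tissue with loss of part of the basal turn. The tissue was dissociated with collagenase IV and profiled with the 10x 3′ kit v3.1. The study made 1 library at postnatal day 14 (P14), when hearing is still maturing, and 2 libraries at P28 (replicates 1 and 2), when the cochlea is mature. Each library pooled 14 ears of 7 mice, so that a library, and not a mouse, is the unit of replication. In all there were 2513 barcodes with 10125255 UMIs at P14, 11948 with 35485894 in P28 replicate 1, and 18196 with 37530956 in P28 replicate 2.

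Fibroblasts build the loose connective tissue of an organ. They secrete fibrillar collagens, trim and cross-link them outside the cell, and coat the fibrils with small proteoglycans such as decorin (Dcn). Type I collagen is a trimer of 2 chain types encoded by Col1a1 and Col1a2, and type III collagen is made of the Col3a1 product alone. In the cochlea the best known connective tissue cells are the fibrocytes of the spiral ligament and spiral limbus, many of which secrete cochlin (Coch), and bone cells of the otic capsule make type I collagen in bulk; the rule put a limit on Coch and on bone genes.

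The label of collagen I fibroblasts did not hold for both chains. Only 31 of the 1403 cells (2.21%) had a UMI of Col1a1. At P14 it was 13 of 238 cells (5.46%), in P28 replicate 1 it was 5 of 523 (0.956%) and in P28 replicate 2 it was 13 of 642 (2.02%). Among the other barcodes, which hold everything outside the rule, the shares were 2.04%, 0.683% and 1.09%. The rule was therefore met through Col1a2, Dcn and Col3a1 without Col1a1 in 1372 cells, and the cells are called Dcn+Col1a2+Col3a1+ cells, or Dcn+ cells, from here on. Levels are given in the order P14, P28 replicate 1, P28 replicate 2 throughout. The level of Col1a1 in the summed cells was 100.3, 8.11 and 10.2 CPM. Most of that at P14 lay in a cluster of 75 cells that also carried cartilage and mineral genes (cluster 4), which had 602 CPM at P14. Without that cluster Col1a1 was at 7.54, 1.75 and 5.22 CPM. That of Col1a2 was 3353, 633 and 680.3 CPM, that of Dcn 5872, 3212 and 3074 CPM and that of Col3a1 1572, 458 and 478 CPM. CPM are UMIs per 1000000 UMIs of the summed cells, and since the 3′ kit counts 1 end per molecule they need no correction for gene length. Col1a1 was abundant in a small class of barcodes of 1 library: 30 barcodes of P28 replicate 2 that met the collagen condition and held 2 or 3 of the bone genes had 16892 CPM of Col1a1 and 19137 CPM of Col1a2, or 88.3 Col1a1 UMIs per 100 Col1a2 UMIs (95% binomial interval 82.9 to 94.0). In the Dcn+ cells there were 2.99 (2.29 to 3.84) at P14 and 1.28 (0.769 to 2.01) and 1.50 (0.958 to 2.24) at P28. The ratio was as low in the barcodes set aside for cochlin, at 1.55, 1.15 and 1.92, and at 1.27 and 1.41 in all other barcodes of P14 and P28 replicate 1. It was 30.9 in all other barcodes of P28 replicate 2, which include the 30 with bone genes. No barcode that met the collagen condition and the Coch limit had 2 or 3 bone genes in P14 or P28 replicate 1, which held 121 and 90 Col1a1 UMIs in all against 2727 in P28 replicate 2. The cells were selected on the UMIs of these 4 genes, of Coch and of the bone genes, so their levels are a description and were not tested.

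**Figure D1:**
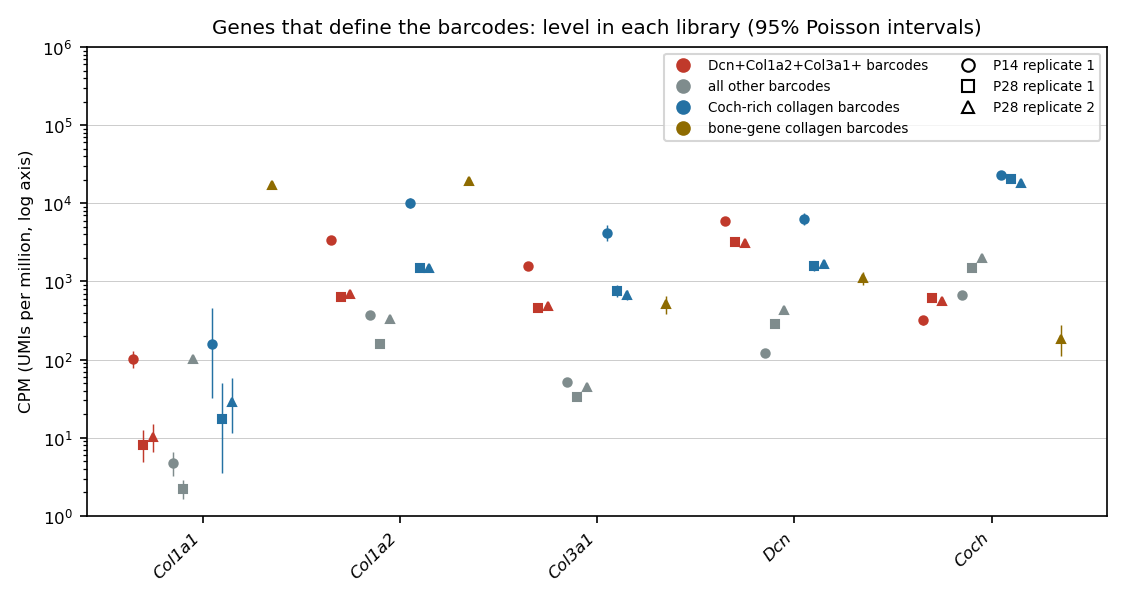
Levels of Col1a1, Col1a2, Col3a1, Dcn and Coch in CPM (log axis) in each library, for Dcn+Col1a2+Col3a1+ barcodes, all other barcodes, and barcodes set aside for cochlin or bone genes; bars are 95% Poisson intervals of the counts. Col1a1 of the Dcn+ barcodes lies between 8.11 and 100.3 CPM, against 16892 CPM in the bone-gene barcodes.

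In the GRCm38 genome (GENCODE M21), Col1a2 lies on chromosome 6 from 4504814 to 4541544 and Col3a1 on chromosome 1 from 45311538 to 45349706, both on the plus strand. Col1a1 lies on chromosome 11 from 94936224 to 94953042, and Dcn on chromosome 10 from 97479609 to 97518143. Among genes of secreted proteins, Ptn had the most RNA in these cells. It lies on chromosome 6 from 36714929 to 36810220 on the minus strand, and Apod lies on chromosome 16 from 31296192 to 31314808 on the same strand. Promoters of Col1a2 and Col3a1, through which nearly all cells were chosen, and of the abundant genes Ptn and Apod are shown because all 4 genes had higher levels at P14 than at P28. Each run covers 250 bases before to 50 after the start of the gene in RefSeq (GRCm38.p6, on the strand of the gene), at chr6:4505368-4505667, chr1:45311288-45311587, chr6:36810130-36810429 and chr16:31314759-31315058. The RefSeq start of Col1a2 lies inside the GENCODE span given above, so its whole run falls within that span. Capitals mark the letters CCAAT or TATAAA, read on either strand.
Col1a2: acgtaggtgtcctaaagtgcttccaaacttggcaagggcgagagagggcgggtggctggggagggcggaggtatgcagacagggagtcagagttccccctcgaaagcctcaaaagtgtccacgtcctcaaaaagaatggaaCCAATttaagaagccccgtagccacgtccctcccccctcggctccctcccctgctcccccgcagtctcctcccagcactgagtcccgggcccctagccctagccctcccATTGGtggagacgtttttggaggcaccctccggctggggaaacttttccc
Col3a1: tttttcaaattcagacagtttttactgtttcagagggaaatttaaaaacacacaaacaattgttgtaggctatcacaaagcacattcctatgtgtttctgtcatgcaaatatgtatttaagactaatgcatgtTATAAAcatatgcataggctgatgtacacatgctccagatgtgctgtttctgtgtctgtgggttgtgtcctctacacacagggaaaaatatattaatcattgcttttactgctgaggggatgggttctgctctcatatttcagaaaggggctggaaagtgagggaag
Ptn: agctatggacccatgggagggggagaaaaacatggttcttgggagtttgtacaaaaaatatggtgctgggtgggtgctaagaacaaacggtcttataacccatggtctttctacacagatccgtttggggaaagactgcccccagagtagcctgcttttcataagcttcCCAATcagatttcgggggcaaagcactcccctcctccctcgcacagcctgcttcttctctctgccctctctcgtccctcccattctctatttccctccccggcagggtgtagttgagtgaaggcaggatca
Apod: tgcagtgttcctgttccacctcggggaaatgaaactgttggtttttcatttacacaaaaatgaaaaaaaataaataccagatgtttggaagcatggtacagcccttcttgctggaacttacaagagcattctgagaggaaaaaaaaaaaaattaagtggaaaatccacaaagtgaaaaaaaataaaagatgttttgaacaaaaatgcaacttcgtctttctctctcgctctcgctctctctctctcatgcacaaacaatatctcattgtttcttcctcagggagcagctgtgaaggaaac
Of 32851 RefSeq promoters of this length, 37.4% held CCAAT and 13.6% held TATAAA. Col1a2 had 2 matches to CCAAT and Ptn had 1. Col3a1 had 1 match to TATAAA, and Apod had a match to neither. A match of letters is a description and not a binding site.

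The Dcn+ cells made up 14.3% of the barcodes within the limits at P14 (238 of 1662, exact 95% binomial interval 12.7 to 16.1%), 9.26% in P28 replicate 1 (523 of 5651, 8.51 to 10.0%) and 9.09% in P28 replicate 2 (642 of 7065, 8.43 to 9.78%). The interval at P14 lay above both at P28; it covers counting error only, with mitochondrial UMIs at most 5% it overlapped with both (14.8% against 10.99% and 11.6%), and with 1 library at P14 the age and the library cannot be told apart. The median depth of the Dcn+ cells was 2093 UMIs at P14 and 2738 and 2703 at P28, and that of the other barcodes was 2668.5, 2372 and 1992. The P14 cells stood apart in RNA quality. Malat1, a nuclear RNA, took a median of 8.73% of their UMIs against 2.50% and 2.39% at P28, and ribosomal protein genes took 8.10% against 20.3% and 20.5%. Barcodes that resembled nuclei, with Malat1 over 5% and ribosomal protein genes under 5% of UMIs, numbered 66 of 238 at P14 (27.7%) and 1 in each P28 library. The libraries also differed in genes of the sex chromosomes. Xist, which is transcribed from the inactive X chromosome of females, had 689 UMIs in 131 of 238 Dcn+ cells at P14, 1 UMI in 1 of 523 cells in P28 replicate 1, and none in 642 cells of P28 replicate 2, which allows a share of cells with a UMI of up to 0.467% and sets no limit on cells that express it. The Y-linked gene Ddx3y had a UMI in 5.88% of the cells at P14 and in 34.6% and 29.8% at P28. Xist was looked at after the comparison of ages had named it. The labels give no sex, and the sex makeup of the pools and age cannot be told apart. Between 10 and 54 barcode sequences were shared by pairs of libraries, none of them among the Dcn+ cells.

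Leaving out mitochondrial and ribosomal genes, the most abundant protein-coding gene of the Dcn+ cells was Ptn, which encodes the secreted growth factor pleiotrophin. Its level was 22136, 11262 and 10414 CPM, against 1297, 4402 and 5218 CPM in the other barcodes. Every library of Dcn+ cells was above every library of the others, but the fold change, 2.11 on the log2 scale, missed the threshold (adjusted p = 0.089). Apod, which encodes a lipid-binding lipocalin, had 7587, 4653 and 4668 CPM against 248, 1170.1 and 1681 CPM (log2 fold change 2.74 ± 0.75 (SE), adjusted p = 0.060), and the groups did not overlap either. Apoe, the lipid carrier apolipoprotein E, stood at 10043, 4516 and 3796 CPM and at 3168, 2511 and 2406 CPM in the others (log2 fold change 1.08 ± 0.27 (SE), adjusted p = 0.0499). Itih5, which encodes a hyaluronan-binding matrix protein, and Plpp3, a lipid phosphatase, were also among the 15 most abundant genes outside the mitochondrial and ribosomal ones, and both were higher in the Dcn+ cells. Itih5 had 3396, 2425 and 2422 CPM (log2 fold change 1.55 ± 0.20 (SE), adjusted p = 0.017) and Plpp3 3009, 2610.3 and 2496 CPM (log2 fold change 2.43 ± 0.44 (SE), adjusted p = 0.025). Haemoglobin Hbb-bs was on the same list at 7738, 2396 and 3614 CPM, against 9722, 6583 and 9535 CPM in the other barcodes (log2 fold change -1.04 ± 0.30 (SE), adjusted p = 0.071). Most of its RNA came from a cluster of 16 cells (cluster 10). Hbb-bs was at 216197 CPM in that cluster and at 446.6 CPM in the other Dcn+ cells.

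In the sums of the 3 libraries, 942 of 13422 genes were higher in the Dcn+ cells (7.02%) and 1670 lower (12.4%) by edgeR's quasi-likelihood test with the library as a block and Benjamini-Hochberg adjustment. The 8 genes of the rule were kept out. A gene rare in either class can pass the filter on low counts through the other class alone. Counts of list genes called higher or lower may in part be set by that filter. Genes that go along with collagen RNA come with such a rule, so these calls describe what the chosen cells carried and are no independent evidence of their kind. The counts depended on the libraries: without P28 replicate 1 none of 13633 genes was called, although 2611 had an unadjusted p under 0.05, without P28 replicate 2 they fell to 524 and 855, and without the P14 library they were 2731 and 3333.

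The 10 genes with the largest fold changes among those at 100 CPM or more in each library were Gpr83, Col15a1, Ccl11, Fbn1, Aldh1a2, Nrxn3, Nid1, Tgfbi, Cyp1b1 and Cldn11. Ccl11, the eosinophil chemokine eotaxin, stood at 656, 750.3 and 572 CPM and at 14.7, 73.0 and 85.7 CPM in the other barcodes (log2 fold change 3.82 ± 0.57 (SE), adjusted p = 0.019). The receptor gene Gpr83 stood at 118, 111 and 111 CPM against 1.32, 7.28 and 12.9 CPM (log2 fold change 4.19 ± 0.58 (SE), adjusted p = 0.018). Aldh1a2, which makes retinoic acid, was at 205, 213 and 213 CPM, against at most 38.8 CPM in the other barcodes (log2 fold change 3.49 ± 0.57 (SE), adjusted p = 0.021). In all of these the lowest library of Dcn+ cells exceeded the highest of the others. The genes were chosen as called and higher in each library, so such a separation comes largely with the choice. Cldn11, a tight junction protein best known in the cochlea from basal cells of the stria vascularis, was at 875, 995 and 1054 CPM against 34.8, 172 and 263 CPM (log2 fold change 3.04 ± 0.55 (SE), adjusted p = 0.025). Cyp1b1, a retinoid and steroid oxidase, was at 282, 301 and 335 CPM (log2 fold change 3.08 ± 0.71 (SE), adjusted p = 0.042). The neurexin gene Nrxn3 and the basement membrane gene Nid1 rose by 3.26 and 3.20 on the log2 scale.

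**Figure D2:**
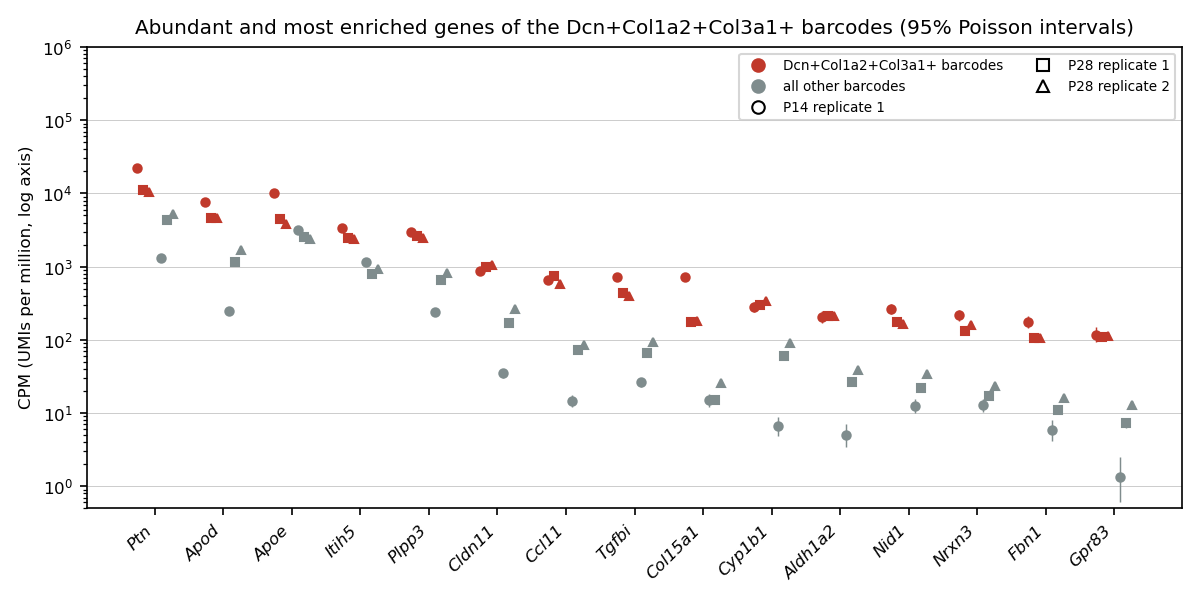
Levels in CPM (log axis) of abundant and enriched genes in the Dcn+Col1a2+Col3a1+ barcodes and in all other barcodes of each library, with 95% Poisson intervals of the counts. The Dcn+ barcodes lie above the others in all 3 libraries for each of the 15 genes. The 10 enriched genes were chosen for higher levels in all 3 libraries and an adjusted p under 0.05, so for them neither is a result. Of the abundant genes, Apoe, Itih5 and Plpp3 passed the test and Ptn and Apod (adjusted p of 0.089 and 0.060) did not.

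Markers of fibroblasts other than those of the rule were mostly higher. Of 24 such genes, 14 were higher, 2 lower and 8 not called, with a median log2 fold change of 2.17 against -0.07 over all genes tested. Pdgfra, the PDGF receptor of fibroblasts, was at 633, 371 and 359.7 CPM against 69.1, 127 and 156 CPM (log2 fold change 1.99 ± 0.40 (SE), adjusted p = 0.032). The chains of type VI collagen, Col6a1, Col6a2 and Col6a3, rose by 3.78, 3.60 and 3.50 on the log2 scale but stayed low, Col6a1 at 115, 19.6 and 18.7 CPM. The markers that are used for the adventitial fibroblasts of other organs were near the limit of detection: Dpt was at 11.1, 10.2 and 5.53 CPM, Pi16 at 11.1, 16.6 and 19.1 CPM, and Clec3b at 49.3, 3.41 and 2.55 CPM, although all were called higher, with less still in the other barcodes. Lum, the proteoglycan lumican, was lower in the Dcn+ cells, at 219.6, 70.0 and 53.6 CPM against 773, 134 and 143 CPM (log2 fold change -1.36 ± 0.25 (SE), adjusted p = 0.026). Thy1, which neurons and some fibroblasts carry, was also lower, with no UMI in the P14 cells.

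Of the genes of elastic fibres, 12 of 17 tested were higher and none lower (median log2 fold change 1.89). Fbn1, the fibrillin that forms the microfibril, was at 177, 106 and 105 CPM against 5.88, 11.1 and 16.1 CPM (log2 fold change 3.56 ± 0.43 (SE), adjusted p = 0.017), and the microfibril proteins Mfap5 and Mfap4 rose by 3.49 and 2.25 on the log2 scale. Elastin itself (Eln) was at only 46.1, 9.82 and 13.2 CPM. Among other collagen chains 9 of 27 were higher and 1 lower. The most abundant of those called higher was Col15a1, a basement membrane collagen, at 721, 175 and 179 CPM against 14.8, 15.0 and 26.0 CPM (log2 fold change 3.95 ± 0.58 (SE), adjusted p = 0.019), followed by Col26a1 at 226, 87.9 and 94.4 CPM. The cartilage chain Col9a1 was the 1 that was lower, at 299, 3.84 and 5.53 CPM against 446, 16.8 and 16.3 CPM. Of 25 genes that process and cross-link collagen, 12 were higher, among them Pcolce, the enhancer of procollagen C-proteinase (log2 fold change 2.64 ± 0.50 (SE), adjusted p = 0.027), the proteinase Bmp1 and the collagen chaperone Serpinh1. Plod2, a lysyl hydroxylase, was lower. Of 9 tested small leucine-rich proteoglycans other than Dcn, 4 were higher (Bgn, Ogn, Prelp and Omd) and 2 lower (Epyc and Lum). Biglycan (Bgn) was at 161, 296 and 257 CPM against 12.9, 66.3 and 90.0 CPM (log2 fold change 2.40 ± 0.41 (SE), adjusted p = 0.023). Of 17 matrix proteases and inhibitors 7 were higher and none lower. Mmp2, the gelatinase, led them at 705, 391 and 428 CPM against 40.0, 89.7 and 124 CPM (log2 fold change 2.67 ± 0.49 (SE), adjusted p = 0.026), and the metalloproteinase inhibitor gene Timp3 was at 1155, 1321 and 1359.7 CPM without passing the test (adjusted p = 0.052). Of 17 matricellular genes 5 were higher and Ccn4 was lower. Tgfbi, a matrix adaptor protein, was at 729, 434 and 399.7 CPM against 26.3, 65.9 and 93.1 CPM (log2 fold change 3.19 ± 0.55 (SE), adjusted p = 0.023).

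Of the growth factors, Wnt and BMP ligands and their binders, 16 of 35 tested were higher and 3 lower (Frzb, Gas6 and Sfrp1). The insulin-like growth factor binders Igfbp2 and Igfbp4 were at 1637, 1074 and 915 CPM and at 1044, 1045 and 871 CPM, and Igf2 was at 258, 106 and 108 CPM. Midkine (Mdk), the relative of pleiotrophin, was at 982, 1035 and 923 CPM against 109.5, 259 and 304 CPM (log2 fold change 2.27 ± 0.33 (SE), adjusted p = 0.019). Of 16 complement and cytokine genes 8 were higher and none lower. Besides Ccl11 they included the complement inhibitor Serping1 (log2 fold change 2.81 ± 0.64 (SE), adjusted p = 0.040) and the chemokine Cxcl12. Of 24 mesenchymal transcription factors 10 were higher and 3 lower, Runx1 and Scx among them. Tbx18, a T-box factor of the developing otic mesenchyme, was at 336, 573 and 595 CPM against 14.0, 149 and 197 CPM (log2 fold change 2.64 ± 0.62 (SE), adjusted p = 0.043), and Prrx1, Osr1, Osr2 and Foxp2 rose too. Pou3f4, the deafness factor of otic mesenchyme, was at 419, 381 and 366 CPM against 31.6, 136 and 180.3 CPM without passing the test (adjusted p = 0.057). Of the 10 imprinted growth genes tested, Grb10, Igf2, Cdkn1c and Plagl1 were higher. Of the 19 immediate early and heat shock genes none was higher and 2 were lower, and of 11 cell cycle genes none was called.

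**Figure D3:**
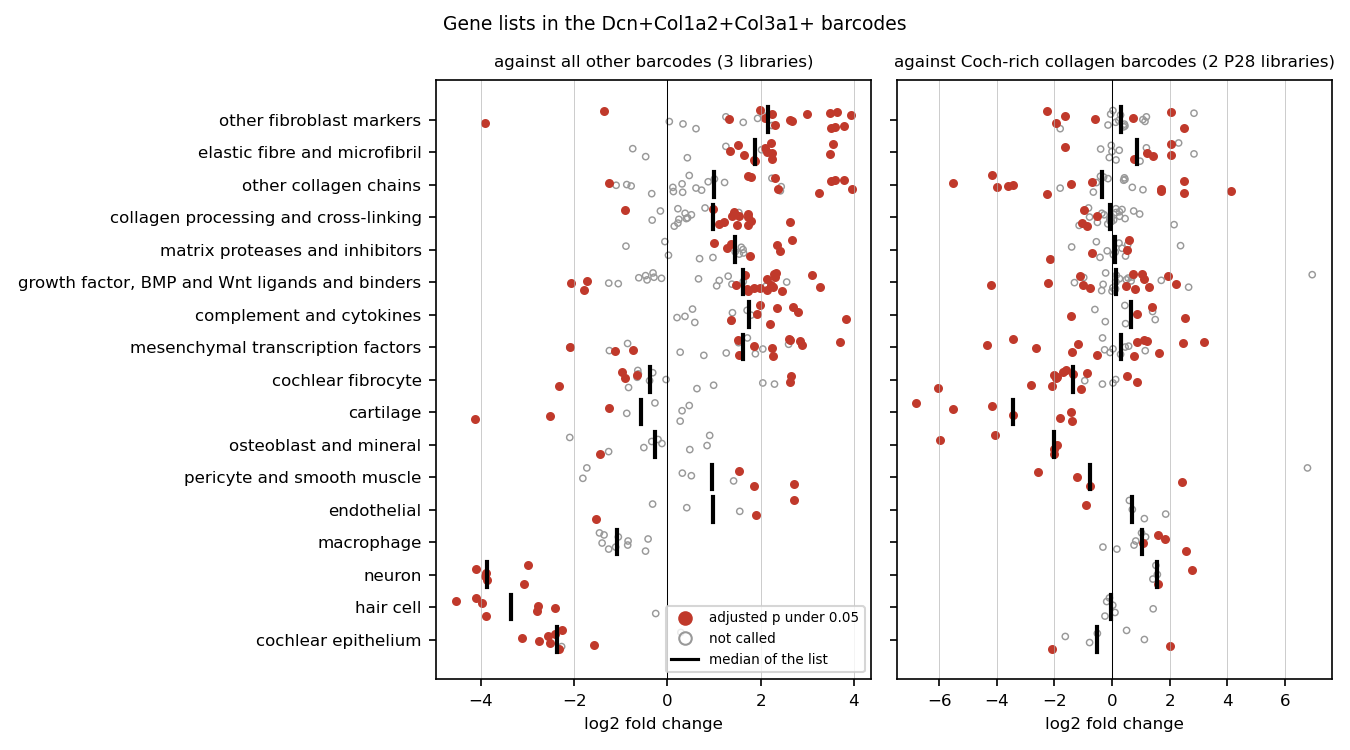
Log2 fold change of the Dcn+Col1a2+Col3a1+ barcodes for each gene of 17 lists, against all other barcodes in 3 libraries (left) and against Coch-rich collagen barcodes in the P28 libraries (right); filled points passed an adjusted p of 0.05 and the black line is the median of the list. Fibroblast and elastic fibre genes lie to the right on the left panel, and cartilage and mineral genes to the left on the right panel.

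Genes of neurons and epithelium were lower. All 6 neuronal genes, 7 of 8 hair cell genes and 8 of 10 genes of the cochlear epithelium were lower. A gene rare in the Dcn+ cells can pass the filter on low counts through the other barcodes alone. These counts may in part be set by that filter, and they are a description. Of the 5 genes that fell most from a level of at least 100 CPM in the others, Ocm, Pcp4, Acbd7, Lrrc10b and Pvalb, the calcium buffer oncomodulin (Ocm) was at 78.0, 215 and 142 CPM against 8761, 1927 and 1173 CPM (log2 fold change -4.11 ± 0.92 (SE), adjusted p = 0.039). None of 10 macrophage genes was called at an adjusted p of 0.05, and together they came to 145, 402 and 569 CPM in the Dcn+ cells against 1451, 744 and 625 CPM in the others, with Lyz2 the most abundant at P28. Of the 17 genes of the fibrocyte list 2 were higher, Tbx18 among them, 4 were lower (Ucma, Otor, Car2 and Slc12a2) and 11 were not called. The summed level of the list was 6297, 5795 and 6458 CPM in the Dcn+ cells and 4405, 4383 and 5185 CPM in the others. Of the pericyte list, Des, Pdgfrb and Cspg4 were higher, but of the defining smooth muscle genes Myh11 was at 0 UMIs in all 3 libraries of Dcn+ cells and Acta2 at 0 in 2 of them and 1 UMI in P28 replicate 2. Rgs5, a pericyte marker, was at 3.18, 1.71 and 3.40 CPM. Of 6 endothelial genes tested, Cdh5 was higher at 247, 77.3 and 58.7 CPM and Ly6c1 too, and Egfl7 was lower, whereas the defining markers Pecam1 and Cldn5 were at 3.18, 0 and 0.425 CPM, and at 0, 0.427 and 1.28 CPM. A UMI in 2 or more genes of a list of another lineage was found in 117, 280 and 325 of the Dcn+ cells (49.2%, 53.5% and 50.6%). Emcn of the endothelial list, Myo6 of the hair cell list and Pmp22 of the Schwann cell list were the most abundant of their lists in each library of Dcn+ cells. Without these cells, 1065 genes were called higher and 1764 lower than in the other barcodes. Genes of strial marginal cells summed to 7.23 CPM at most. Of the lists not yet named, cartilage genes were lower in 3 of 8, erythroid genes in 3 of 6, mineral genes in 1 of 10, Schwann cell genes in 1 of 6, granulocyte genes in 1 of 6, B lineage genes in 1 of 5 and tympanic border cell genes in 1 of 4, with none higher; single calls are near the 12.4% of all genes that were lower. Osr2, Abca9 and Etv1 of 7 perineurial and endoneurial genes were higher, and neither of 2 melanocyte genes was called.

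Ptn and Apod were lower just outside the collagen condition, by less at P28 than at P14. At P28, barcodes with a UMI in 2 of the 4 collagen and decorin genes, just outside, had 8727 and 8349 CPM of Ptn and 3938 and 4058 CPM of Apod, against the 11130 and 9826 CPM of Ptn and 4798 and 4657 CPM of Apod in barcodes with 3 of the 4, whatever their Coch. At P14 the levels went from 6767 to 22895 CPM of Ptn and from 1704 to 7785 CPM of Apod. At the cochlin limit, Ccl11 was at 99.4 and 239 CPM in P28 barcodes with Coch at 0.25 to 0.5% of UMIs, just inside, and at 176 and 109.9 CPM with Coch at 0.5 to 1%, just outside. These values use the rule and were not tested.

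The closest cells by the rule were barcodes with the same collagen condition and Coch at 0.5% of UMIs or more. There were 54 and 80 of them in the P28 libraries, and the 15 of the P14 library were too few to sum, so the comparison had 2 sums against 2. The Dcn+ cells were higher in 420 of 10568 genes (3.97%) and lower in 409 (3.87%) by edgeR with the library as a block. DESeq2 called 138 and 138. With 2 sums against 2, the edgeR p-values rest on a spread moderated across genes. Their size is no measure of how libraries vary. Both kinds of cell carried Apod, at 4653 and 4668 CPM in the Dcn+ cells and 6669.9 and 5824 CPM in the Coch-rich ones (log2 fold change -0.37 ± 0.12 (SE), adjusted p = 0.024). Pdgfra was at 371 and 359.7 CPM against 419.7 and 329 CPM and Pou3f4 at 381 and 366 CPM against 339 and 409.6 CPM, with adjusted p-values of 0.972 and 0.970. Ptn was higher in the Dcn+ cells (log2 fold change 0.50 ± 0.11 (SE), adjusted p = 1.55e-04). The 8 genes of at least 100 CPM that were higher by most were Osr1, Grik1, Aldh1a2, Ccl11, Eps8, Nrxn3, Des and Csrp2. The zinc finger factor Osr1 had 172 and 130.1 CPM in the Dcn+ cells and 11.5 and 20.3 CPM in the Coch-rich ones (log2 fold change 3.19 ± 0.37 (SE), adjusted p = 2.10e-15). Ccl11 had 750.3 and 572 CPM against 121 and 114 CPM (log2 fold change 2.52 ± 0.19 (SE), adjusted p = 2.57e-35), and the intermediate filament gene Des had 172 and 173 CPM against 28.7 and 36.5 CPM (log2 fold change 2.41 ± 0.30 (SE), adjusted p = 2.00e-13).

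Cartilage and mineral genes were lower in the Dcn+ cells. All 7 cartilage genes tested and all 5 mineral genes tested were lower than in the Coch-rich cells, with medians of -3.45 and -2.02 on the log2 scale against 0.02 over all genes. The lists hold 11 and 16 genes, and the others were not tested. A gene rare in the Dcn+ cells can pass the filter on low counts through the Coch-rich sums alone. These counts and medians may in part be set by that filter, and they are a description. The rule limited bone genes in the Dcn+ cells and not in the Coch-rich ones. Of the Coch-rich cells, 1 of 80 in P28 replicate 2 and none of 54 in P28 replicate 1 had 2 or 3 bone genes. With this cell left out, an alternative added after the data had been seen, all 5 mineral genes were called lower as well, Spp1 with a log2 fold change of -4.06. Aggrecan (Acan) was at 2.56 and 5.95 CPM in the Dcn+ cells and at 437 and 552 CPM in the Coch-rich ones (log2 fold change -6.79 ± 0.24 (SE), adjusted p = 5.71e-161), the type II collagen gene Col2a1 at 41.0 and 54.0 CPM against 816 and 929 CPM (log2 fold change -4.16 ± 0.16 (SE), adjusted p = 5.53e-137), and osteopontin (Spp1) at 382 and 344 CPM against 7498 and 5240.0 CPM (log2 fold change -4.06 ± 0.14 (SE), adjusted p = 1.79e-165). Dmp1, Col9a1, Slco1a4, Ecrg4 and Col11a2 completed the 8 that were lower by most. Of the fibrocyte list 11 of 17 were lower, including the gap junction genes Gjb2 and Gjb6 and Otos, and 2 were higher, Tbx18 among them. Lumican and fibromodulin (Fmod) were lower as well. The elastic fibre genes went the other way: 5 of 16 were higher, led by Mfap5 and Fbn1, and 1 lower (Fbln1). Of 10 macrophage genes 4 were higher in the Dcn+ cells (Mrc1, Csf1r, C1qb and Lyz2), and so were 2 of 5 neuronal genes (Nefh and Snap25) and 1 of 5 erythroid genes (Hbb-bs). Small clusters described below carried most of this RNA. Macrophage genes came to 6320 CPM in cluster 8 (52 cells) and 101 CPM in the other Dcn+ cells. Neuronal genes came to 9334 CPM in cluster 11 (8 cells, all from P28 replicate 2) and 38.2 CPM in the other Dcn+ cells. The sign of the Snap25 and Hbb-bs differences changed when 1 P28 library was left out. The 2 kinds of cell also differed in RNA composition, with ribosomal protein genes at a median of 20.3% and 20.5% of UMIs in the Dcn+ cells and 7.84% and 8.47% in the Coch-rich cells; whether this had a part in the differences was not tested.

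Below the Coch limit, barcodes with the collagen condition and 2 or 3 bone genes were found in P28 replicate 2 alone (30 barcodes). Values are therefore given without a test. In that library Ptn was at 10414 CPM in the Dcn+ cells and 1430 CPM in the bone-gene cells, and Apod at 4668 and 625 CPM. In the other direction Dmp1, a mineral matrix protein, was at 3.40 and 1394 CPM, Col11a1 at 23.8 and 6282 CPM, Sparc at 679 and 8537 CPM and Thbs1 at 10.2 and 2435 CPM. Poisson intervals of such levels cover counting error only, and the share of all genes with separate intervals in this pair was not counted. The bone-gene cells were chosen on bone genes, and genes that go along with those come with the choice.

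The Dcn+ cells were not uniform. Clustering on 2000 variable genes, without those of the rule and with each library centred, gave 11 clusters. They are numbered by size and left unnamed, and since the same cells set the clusters and their genes, no test was made. Clusters 1 and 2 held 932 cells (66.4%): 178 of the 238 at P14 (74.8%), and 347 (66.3%) and 407 (63.4%) at P28. Cluster 1 (621 cells) had a median of 1834 UMIs and led with Otos, Ccl11, Myl9, S100a6 and Pcolce. Cluster 2 (311 cells, 4581 UMIs) led with the potassium channel gene Kcnq3, Fbln2, Egr1, Lmntd1 and Clec1a. Both had Ptn at 16206 and 14393 CPM, Cldn11 at 1261 and 1239 CPM and Pdgfra at 479 and 478 CPM, and Col1a1 stood at 2.41 and 2.37 CPM there, against 1118 and 859.8 CPM of Col1a2.

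**Figure D4:**
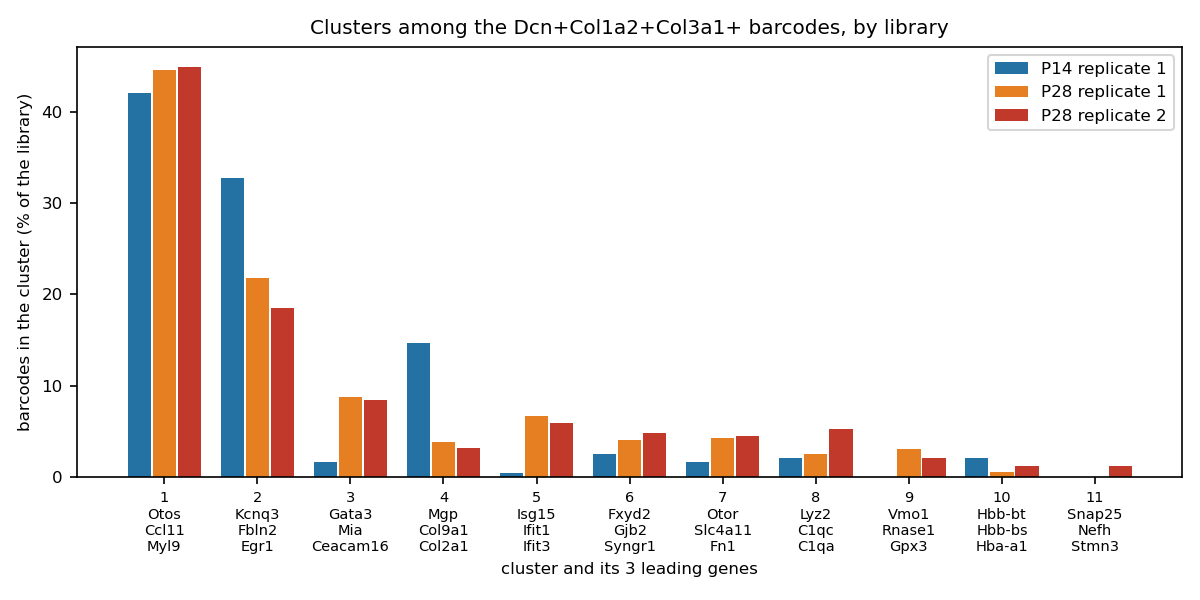
Share of the Dcn+Col1a2+Col3a1+ barcodes of each library (in %) that fell in each of 11 clusters, labelled with the 3 leading genes. Clusters 1 and 2 hold most barcodes of each library, cluster 4 holds 14.7% at P14 against 3.82% and 3.12% at P28, and clusters 9 and 11 hold none at P14.

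Some of the smaller clusters carried a different matrix. In cluster 4 (75 cells, 35 of them from P14) the leading genes were Mgp, Col9a1, Col2a1, Dmp1 and Col11a1. Col2a1 was at 2944 CPM and Col1a2 at 5627 CPM there, and Col1a1, at 421 CPM, was higher than in any other cluster. The genes of the mineral list came to 4545 CPM there against 268 CPM in the rest of the Dcn+ cells. Clusters 6 and 7 were the cells nearest to the cochlin limit, with Coch at 2140 and 2073 CPM against 178.6 CPM in cluster 1. Cluster 6 (58 cells) was led by Fxyd2, a sodium pump regulator, and the connexin gene Gjb2, at 4046 and 4278 CPM, with Dcn at 1029 CPM, and its fibrocyte list came to 16769.7 CPM against 5028 CPM in the rest. Cluster 7 (55 cells) was led by Otor, Slc4a11, Fn1, Notum and Tnc, with Otor at 2384 CPM, Emilin2 at 2665 CPM and Emcn at 2735 CPM. Cluster 5 (74 cells) was led by genes that interferons induce, Isg15, Ifit1, Ifit3, Irf7 and Ly6a, with Ptn at 12050 CPM and Ccl11 at 931 CPM. Only 1 of its cells came from P14, against 35 and 38 from P28.

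The clusters 3 and 8 to 11, 209 cells in all (14.9%), were led by genes of other cell types on top of Ptn and Apod. Cluster 3 (104 cells) was led by Gata3, Mia, Ceacam16, Epyc and S100a1, the last with a UMI in every cell and 12210 CPM, and it had Ocm at 1810 CPM, with a UMI in 14.4% of its cells, against 30.6 CPM in cluster 1. Cluster 8 (52 cells) carried the macrophage genes Lyz2, C1qc, C1qa, C1qb and Fcer1g, with Lyz2 at 1427 CPM. Cluster 9 (29 cells, none from P14) carried Vmo1, Rnase1, Gpx3, Cndp2 and Lrp2, with Vmo1 at 3140 CPM. In cluster 10 (16 cells) haemoglobin genes made up 39.1% of the UMIs. Cluster 11 (8 cells, all from P28 replicate 2) carried the neuronal genes Snap25, Nefh, Stmn3 and Nefl and had a median of 11206 UMIs. Whether these barcodes held 2 cells or free RNA was not tested; the doublet caller marked too few barcodes to be used. Their Dcn was at 1937, 3485, 3207, 2041 and 751 CPM, in that order, against 4824 CPM in cluster 1.

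Between P14 and P28 the design had 1 library against 2. The edgeR test called 0 of 12193 genes (2610 with an unadjusted p under 0.05) and found none of 200 simulated 4-fold changes, so its count says nothing about how many genes changed. DESeq2 called 173 genes higher and 178 lower. The ages are therefore described by the levels with exact Poisson intervals, which leave out any variation between libraries at P14. Those of P14 and both P28 libraries were apart for 720 genes higher at P28 (5.91%) and 820 lower (6.73%).

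Many matrix genes were lower at P28. Of 27 other collagen chains 21 were lower and none higher, of 24 fibroblast markers 18 were lower and 1 higher (Ly6a), and of 25 genes for processing and cross-linking of collagen 17 were lower and none higher. Of 18 elastic fibre genes 11 were lower and none higher, and of 17 matrix proteases and inhibitors 11 were lower and 1 higher (Timp3, at 1155, 1321 and 1359.7 CPM). The medians were -1.80, -1.55, -1.21, -1.18 and -0.94 on the log2 scale, against 0.02 over all genes. The cells were chosen on collagen RNA, and more of them lay near the limit of the rule at P28. With 2 UMIs in each of 3 genes, 164 of 238 cells remained at P14, and 190 of 523 and 184 of 642 at P28. Whether this had a part in the lower levels was not tested. In clusters 1 and 2 alone no fibroblast marker and no matrix protease or inhibitor was higher, and 14 and 7 were lower. Col15a1 fell from 721 CPM to 175 and 179, Sparc, a collagen-binding glycoprotein, from 2237 to 723 and 679, Pcolce from 333 to 112 and 87.2, and Col6a1 from 115 to 19.6 and 18.7 CPM. Ptn at P14 was 2.04 times the mean of the P28 libraries, and Pdgfra was lower at P28 as well. Not all abundant genes followed. The intervals of Aldh1a2 and Ccl11 at P14 overlapped with those of P28, and Tbx18 (336, 573 and 595 CPM) and Cldn11 (875, 995 and 1054 CPM) were higher at P28. Within the main clusters this held for Tbx18 but not for Cldn11. Tbx18 was at 370, 528 and 601 CPM in cluster 1 and at 517, 746 and 771 CPM in cluster 2. Cldn11 was at 1256, 1309 and 1218 CPM in cluster 1 and at 1219, 1198 and 1297 CPM in cluster 2. Of 8 small proteoglycan genes 5 were lower at P28 (Chad, Omd, Lum, Ecm2 and Epyc) and 3 higher (Bgn, Prelp and Ogn), Bgn with 161, 296 and 257 CPM. Of 16 matricellular genes 6 were lower, 1 was higher (Fn1) and 9 were not called. In the other barcodes not all of the matrix lists summed to less at P28. Their collagen chains summed to 2627, 689 and 897 CPM, and their genes for processing and cross-linking to 4687, 1759 and 1894 CPM against 6141, 2595 and 2409 CPM in the Dcn+ cells, both less at P28. Their elastic fibre genes summed to 366, 659 and 749 CPM against 2699, 1690.1 and 1597 CPM in the Dcn+ cells, and their matrix proteases and inhibitors to 777, 1285 and 1594 CPM against 3958, 2877 and 2972 CPM, both more at P28. The differences between the Dcn+ cells and the others in these changes were not tested.

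Genes of other cell types moved with age in the Dcn+ cells as well. Of 10 macrophage genes 7 were higher at P28 (summed level 145, 402 and 569 CPM) and of 8 hair cell genes 3 were (504, 881 and 721 CPM). All 6 erythroid genes were lower (12961, 4424 and 6823 CPM, most of it Hbb-bs), and so were 4 of 5 B lineage genes (111, 29.9 and 40.8 CPM). The erythroid list came to 392779 CPM in cluster 10 (5, 3 and 8 cells) and to 827 CPM in the other Dcn+ cells, so few cells carried its level. Hbb-bs was at 386, 383 and 1450 CPM in cluster 1 and at 348, 109 and 151 CPM in cluster 2. Cluster 3 held 4 cells at P14 and 46 and 54 at P28. Cluster 8, which carried the macrophage genes, held 5 cells at P14 and 13 and 34 at P28. Within clusters 1 and 2, which leave out cluster 3 and the clusters led by macrophage and haemoglobin genes, 13 of the 28 collagen chains of the list were lower at P28 and none higher, where 4.58% of all genes tested were lower and 4.13% higher.

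Matrix levels were also lower at P28 without the nucleus-like barcodes and without cluster 4, in fewer genes; these counts were added after the data had been seen. The 28 collagen chains of the list include Col22a1, which was not tested. Without the nucleus-like cells 19 of the 28 were lower, with 5.93% of all genes lower and 4.98% higher. Without cluster 4 it was 16 chains, with 5.87% of all genes lower and 5.59% higher. Summed over the list, the chains came to 5296, 1103 and 1155 CPM in all cells and 3165, 1199 and 1234 CPM in clusters 1 and 2. Some of the largest differences moved with cluster 4. Col2a1 was at 1152, 41.0 and 54.0 CPM. In clusters 1 and 2 it was at 178 against 40.6 and 50.9 CPM, and 575 of its 724 UMIs at P14 lay in cluster 4. Col9a1 had 150 of 188 UMIs and Dmp1 64 of 71 UMIs there. The histone genes Hist1h2ap, Hist1h2ae and Hist1h1b, transcribed in dividing cells, had 290, 141 and 124 UMIs at P14 against at most 9 in a P28 library, but 289, 139 and 120 of them came from 3 cells. With Xist, which marks sex, and AY036118, a transcript of unnamed function (627 CPM at P14 against 13.2 and 9.78 CPM), these were the 8 genes of at least 100 CPM that were lower at P28 by most.

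**Figure D5:**
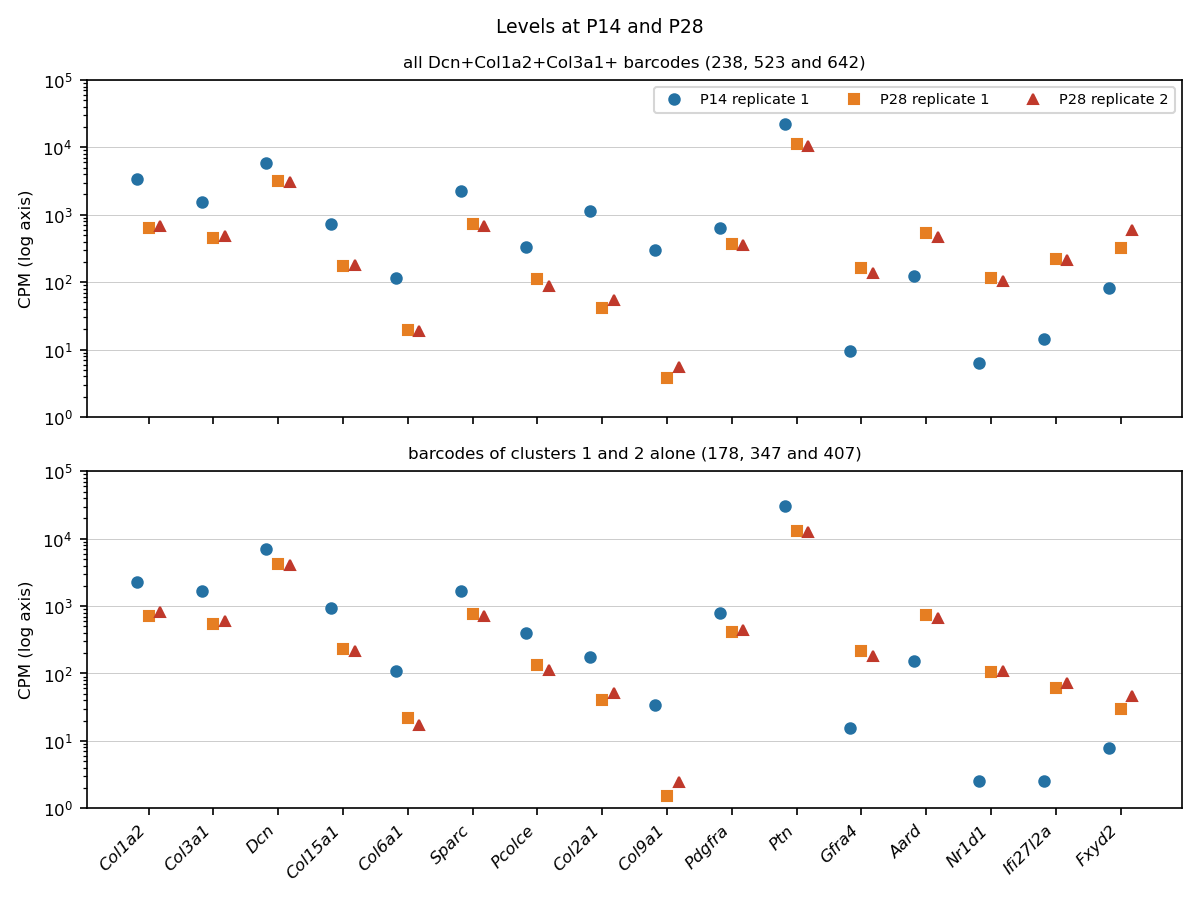
Levels in CPM (log axis) of genes that differed between the P14 library and the P28 libraries, in all Dcn+Col1a2+Col3a1+ barcodes (top) and in clusters 1 and 2 alone (bottom). Col2a1, Col9a1 and Fxyd2 change level between the panels, and Col15a1, Col6a1, Gfra4, Aard and Nr1d1 stay apart between the ages.

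The 8 genes of at least 100 CPM that were higher at P28 by most were Nr1d1, Gfra4, Ifi27l2a, Gpx2, Rps27rt, Fxyd2, Aard and Pcp4. The receptor gene Gfra4 was at 9.55, 162 and 138 CPM. It was found in 6 of 238, 222 of 523 and 226 of 642 cells, most of its UMIs lay in clusters 1 and 2, and in the other barcodes it stood at 0.882, 37.8 and 44.1 CPM. Aard was at 124, 531 and 470.2 CPM, with a UMI in 20.2% of the cells at P14 and in 65.2% and 63.1% at P28. Nr1d1, a repressor of the circadian clock, was at 6.37 CPM and at 116 and 104 CPM, and in the other barcodes it stood at 41.6, 105 and 119.8 CPM. Rps27rt, a near copy of a ribosomal protein gene whose reads may be shared with it, had a UMI in 9.66%, 52.6% and 48.8% of the cells. A few cells held much of the RNA of other genes. Of the 510 UMIs of the interferon-induced Ifi27l2a in each P28 library, 234 and 204 came from 3 cells, and of Pcp4, a hair cell gene, 377 of 537 and 206 of 376 did. Fxyd2 was at 81.2, 316 and 595 CPM, but within clusters 1 and 2 it was at 7.74, 29.3 and 46.8 CPM (3, 39 and 57 UMIs), where the interval at P14 was not apart from those of both P28 libraries. Of 17 immediate early and heat shock genes 5 were higher at P28 (Fos, Zfp36, Junb, Dusp1 and Jun) and 1 lower (Klf4). In clusters 1 and 2 alone 1 was higher, and the list summed to 986, 1689 and 983 CPM there, so that P28 replicate 2 was no higher than P14. How far sex, RNA quality and age each enter these differences cannot be told apart.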

How the data were processed

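Libraries were made from dissociated cochlear tissue, 1 at P14 and 2 at P28. The authors aligned the reads to mm10 and deposited UMI counts per gene and barcode as filtered matrices; their notes name Cell Ranger 6.0.1 and the file headers name version 5.0.1. No value was normalized before deposit. The 40 symbols that name more than 1 identifier were kept apart by identifier, and 32158 of 32285 identifiers were found in GENCODE M21. The class members, the gene lists and the tests were chosen with earlier results of these data known, so that no list is independent support for a pattern.

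The counts were summed per class and library and tested with edgeR 4.0.16 (TMM, filterByExpr, quasi-likelihood, Benjamini-Hochberg threshold 0.05) in R 4.3.3, with the library as a block where both classes came from it. Every pair shares its library by construction, and the deviations of paired sums correlated at 0.262, 0.160 and 0.309 against the other barcodes and at 0.103 against the Coch-rich ones. DESeq2 1.42.0 was an alternative. The 8 genes of the rule entered no test, and a library with fewer than 20 barcodes in a class was left out of that comparison. The study describes the P28 libraries as biological replicates from separate mice. The labels do not say whether the libraries were prepared independently of each other. The p-values rest on a spread between libraries that edgeR moderates across genes. Against the Coch-rich cells only the P28 libraries gave that spread, so very small p-values there are no measure of how libraries vary. Intervals were exact at 95% and cover counting error only. A count of 0 was given a limit of 3 counts. On simulated counts 200 genes were changed 4-fold. The test against the other barcodes found 170 of them (85%) and made 26 false calls over 13211 genes. There the false calls were a larger share of all calls than the threshold of 0.05. The test against Coch-rich cells found 131 (65.5%) with 7 false calls over 10140 genes, and that of the ages found none.

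Genes were named if they belonged to one of 32 lists, if they were among the 10 largest rises or 5 largest falls against the other barcodes, the 8 largest in each direction in the other comparisons (from at least 100 CPM), the 15 most abundant, or the leading 5 of a cluster. A few genes that meet this rule are not reported here. Genes of the Y chromosome were added after their values were seen. Clusters were made in scanpy 1.11.5 (2000 variable genes, 20 principal components, 15 neighbours, Leiden at 0.5). Scrublet marked 1, 0 and 1 barcodes and was not used as a caller, so doublets were not removed.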

Additional observations from a re-analysis of the deposited data

How the results depend on the processing

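Against the other barcodes, leaving out 1 library moved the genes higher from 0 to 2731 and the genes lower from 0 to 3333; without P28 replicate 1 all 157 named calls were lost, without P14 none was, and the cause was not tested. The counts of genes higher and lower were 614 and 1117 with no replicate block (57 of 157 named calls lost), 579 and 544 with 10 UMIs in every sum (7836 genes tested), 479 and 688 with mitochondrial UMIs at most 5%, and 711 and 956 with barcodes thinned to 1000 UMIs. No named gene changed direction in this comparison under any alternative run.

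Against Coch-rich cells, DESeq2 called 138 and 138 (54 of 121 named calls lost), the fit with no replicate block 281 and 281 (32 lost and 1 reversed), and with the Coch limit at 0.1% 633 genes were lower. Leaving out a P28 library left 1 sum against 1, with values and no test. Log2 fold changes that changed sign were those of Hbb-bs (0.54 in the reported fit, -0.86 with no replicate block, -2.78 with 2 UMIs in each of 3 genes, and from -1.56 without P28 replicate 1 to 3.32, not reversed, without P28 replicate 2), Snap25 (1.58 in the reported fit, from -0.87 without P28 replicate 2 to 2.28, not reversed, without P28 replicate 1, -0.47 at most 3000 genes and 15000 UMIs, -0.0084 with the Coch limit at 0.1%, -0.56 without cells with another lineage), Fn1 (0.093), Gsn (0.084) and Emilin2 (0.56) at most 3000 genes and 15000 UMIs, Abcc9 (0.15) and Serpinh1 (0.35) with 2 UMIs in each of 3 genes, and Serpinh1 (0.11) and Timp3 (-0.25) with the Coch limit at 0.1%.

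Between ages edgeR called 0 genes. The counts higher and lower at P28 were 173 and 178 with DESeq2, 12 and 104 with RLE size factors, 889 and 865 with 10 UMIs in every sum, 808 and 822 at most 3000 genes and 15000 UMIs, 945 and 1051 with mitochondrial UMIs at most 30%, 444 and 398 at most 5%, 612 and 715 with 2 UMIs in each of 3 genes, 942 and 1027 with the Coch limit at 0.1%, 397 and 404 without cells with another lineage, and 405 and 440 when thinned. Chosen after seeing the data, leaving out the highest 6% of Scrublet scores gave 704 and 769, and leaving out nucleus-like barcodes 286 and 480. The cause was not tested. No paired analysis was possible for the ages because P14 has 1 library.

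The share of Dcn+ cells at P14 and in P28 replicates 1 and 2 was 0.662%, 0.0708% and 0.0849% with all 4 genes, 9.87%, 3.36% and 2.60% with 2 UMIs in each of 3 genes, and 7.83%, 4.52% and 4.70% without cells with another lineage. It was 16.6% at P14 at most 3000 genes and 15000 UMIs. At P28 it was 7.13% and 6.36% with mitochondrial UMIs at most 30%, 10.99% and 11.6% at most 5% (14.8% at P14, with overlapping intervals), and 8.14% and 7.70% with the Coch limit at 0.1%. Tests with all 4 genes (11, 4 and 6 cells), with Scrublet calls left out, against Coch-rich cells at 5% mitochondrial UMIs and against bone-gene cells were not run, because too few barcodes remained or were marked.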
